A study of Mus musculus with 141 samples.

Results

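The B-cell genes described here were Cd79a, Cd79b, Ms4a1, Cd22, Cr2, Pax5 and Blk, chosen by their symbols and not by any measured value. They were 7 of the 24423 genes listed in each library. RNA-seq was performed on whole liver, lung and kidney of 1 adult male mouse, 8 to 12 weeks old, from each of 47 Collaborative Cross (CC) strains, which gave 141 libraries. CC strains are recombinant inbred lines derived from an intercross of several founder strains. All mice were kept in chambers with filtered air for 6 hours a day on weekdays over 2 weeks, so no group was left unexposed to the chamber and none received a chemical. The 3 groups compared were therefore the tissues, each with 47 libraries, and the same 47 mice gave all 3. With 1 mouse per strain, a difference between strains and a difference between individual mice cannot be told apart.

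B lymphocytes recognise antigen through a membrane immunoglobulin that signals through the paired chains CD79A and CD79B. Surface proteins such as CD20, CD22 and the complement receptor CD21 set the strength of that signal, Src-family kinases such as BLK pass it on, and the transcription factor PAX5 keeps the cell committed to the B lineage. Whole organs contain B cells from the blood in their vessels, from the tissue itself and, in some organs, from lymphoid clusters. In whole tissue, fewer B cells and less RNA per B cell cannot be told apart.

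In the GENCODE vM1 annotation of mouse build NCBIM37, the build of the deposited data, all 7 members were annotated as protein-coding genes. Cd79a lay on chromosome 7 from 25682400 to 25687216 on the plus strand. The other 6 lay on the minus strand: Cd79b on chromosome 11 from 106172655 to 106176076, Ms4a1 on chromosome 19 from 11324654 to 11340669, and Cd22 on chromosome 7 from 31650421 to 31665361. Cr2 lay on chromosome 1 from 196963005 to 197002909, Pax5 on chromosome 4 from 44544017 to 44724318, and Blk on chromosome 14 from 63991674 to 64036024. Ms4a1 was overlapped by the antisense lincRNA 4930526L06Rik, and Pax5 by the antisense transcript Gm12462 and a microRNA on its own strand. The strand setting of the counting is not given in the sources used here, so reads from those overlaps cannot be separated.

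RefSeq promoter sequences (build GRCm38.p6) were found for 4 members, Cd79a, Cd22, Cr2 and Pax5, and not for Ms4a1, Cd79b and Blk. The 250 bases before the start are shown for Cd79a, the gene against which the others were correlated, for Pax5, which followed it most closely in lung, and for Cr2, which differed most from it in its distribution over tissues. Capitals mark GGAAGT, the core of an ETS-family site, and the E-box CANNTG, each searched on both strands, so that a GGAAGT on the opposite strand reads ACTTCC.
Cd79a, chr7:24897247-24897496, plus strand: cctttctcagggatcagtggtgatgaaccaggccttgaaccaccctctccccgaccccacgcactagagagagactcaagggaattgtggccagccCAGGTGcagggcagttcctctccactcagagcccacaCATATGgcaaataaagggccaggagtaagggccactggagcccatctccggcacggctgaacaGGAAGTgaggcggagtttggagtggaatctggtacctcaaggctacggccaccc
Pax5, chr4:44710695-44710944, minus strand: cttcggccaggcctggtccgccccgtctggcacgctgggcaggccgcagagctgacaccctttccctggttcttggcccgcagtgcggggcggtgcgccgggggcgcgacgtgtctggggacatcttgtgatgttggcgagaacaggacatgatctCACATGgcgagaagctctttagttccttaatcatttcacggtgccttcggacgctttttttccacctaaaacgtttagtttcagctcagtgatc
Cr2, chr1:195176720-195176969, minus strand: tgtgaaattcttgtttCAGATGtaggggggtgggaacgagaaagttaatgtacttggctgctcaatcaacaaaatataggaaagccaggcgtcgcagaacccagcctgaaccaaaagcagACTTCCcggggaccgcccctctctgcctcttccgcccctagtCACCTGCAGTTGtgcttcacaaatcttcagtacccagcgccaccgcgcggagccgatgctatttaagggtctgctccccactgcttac
The Cd79a window held 1 GGAAGT match and 2 E-boxes, the Pax5 window 1 E-box, and the Cr2 window 1 GGAAGT match on the opposite strand and 3 E-boxes. No marked match overlapped another. Among 32851 promoter windows of the same length, 19.7% held GGAAGT and 66.2% held CANNTG, so these letters are common. The octamer ATGCAAAT, present in 1.60% of the windows, was in 0 of the 4 member windows, and CCCNNGGG, a short form of the EBF site present in 11.8%, was in the Cd22 window alone. These matches describe the letters only.

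The total count of a library lay between 1738046 and 42158454 in liver, between 2829104 and 17585682 in lung and between 3046695 and 15028553 in kidney. A large and variable share of them fell on Rn45s, the ribosomal RNA precursor, and Lars2, with medians of 43.2%, 24.1% and 32.3% and highest values of 90.3%, 90.5% and 83.0% in liver, lung and kidney. The lung library of strain CC015 had 90.5% of its counts on these 2 genes, which left 987292 for all others, and the lung library of CC055 had 83.3%. The liver library of CC033 had 90.3%, which left 491533 counts, and it had 0 counts for each of the 7 B-cell genes. Levels below are therefore library-scaled counts with edgeR's TMM factors applied (TMM CPM, in units of reads in every 1000000) unless TPM is named. At a median library, 3 counts corresponded to 0.544 TMM CPM in liver, 0.220 in lung and 0.352 in kidney, and the liver library of CC033 needed 4.66. Several results that rest on CC015, CC055 or CC033 are given with and without them, and others with all strains only.

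All of the B-cell genes were highest in lung. In lung the median TPM, which is scaled for transcript length, was 31.5 for Cd79a, 23.6 for Ms4a1, 13.95 for Pax5, 10.5 for Blk, 6.74 for Cr2, 2.31 for Cd79b and 0.15 for Cd22. The ranges over mice were wide enough that neighbours in this order overlapped. In liver and kidney no member had a median TPM above 1.07, the value of Cr2 in kidney.

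Cd79a encodes the alpha chain that signals for the B-cell receptor. Its lung level ran from 0 in CC015 through a median of 8.07 to 37.3 TMM CPM in CC030, from 0 to 713 counts. In liver it ran from 0 through 0.443 to 1.83, and in kidney from 0 through 0.243 to 1.89. The lung sample was above the liver sample of the same mouse in 46 of 47 mice and above its kidney sample in 46 of 47. CC015 was the exception in both comparisons, and 45 lung libraries were above every liver library and every kidney library. In the limma-voom fit over all tested genes, with strain as a block, the liver value was lower by -4.06 on the log2 scale (SE 0.15, q = 2.22e-47) and the lung value exceeded the kidney value by 4.56 (SE 0.15, q = 1.71e-51).

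Cd79b encodes the beta chain, the partner of CD79A, yet far fewer counts were assigned to it. Lung counts ran from 0 through 7 to 59, with 36 of 47 libraries above 3 counts, while liver reached at most 2 counts and kidney at most 8. The highest lung level, 3.08 TMM CPM, was again in CC030. Pooled over libraries, the lung level was 0.765 TMM CPM (95% exact Poisson interval 0.701 to 0.833, counting error only) against 0.0436 (0.0239 to 0.0732) in liver and 0.0295 (0.0161 to 0.0494) in kidney. Cd79b and Cd22 did not pass the filter of more than 1 CPM in at least 30% of libraries, so they have no value in the main fit. Without that filter, Cd79b exceeded kidney by 3.002 on the log2 scale in lung (SE 0.22, q = 8.85e-24), and Cd22 did so by 1.19 (SE 0.20, q = 1.15e-07). For liver minus lung, Cd79b was at -2.24 (SE 0.22, q = 1.47e-16), and Cd22, at -0.66 (SE 0.20, q = 0.00202), did not reach a log2 difference of 1. With so few counts these folds depend on the small count that the fit adds. The ratio of pooled levels, lung over liver, was 17.5 for Cd79b and 27.0 for Cd22, which had 2 counts over all livers.

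Expression was quantified from uniquely aligned reads on transcripts. Cd79b was listed with 2 transcripts and Cd22 with 4, and the other 5 members with 1 each. Over all genes, the median lung count was 3 for the 6112 genes with more than 1 transcript and 17 for the 18311 genes with 1. The part of this counting in the low values of Cd79b and Cd22 was not tested. Comparisons of level between members are therefore limited to the other 5.

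Ms4a1 encodes CD20, a membrane protein of mature B cells. Its lung level ran from 1.49 in CC021 through 11.4 to 30.3 TMM CPM in CC030, and it had at least 5 counts in every lung. Liver values ran from 0 through 0.639 to 2.37 and kidney values from 0 through 0.185 to 2.92. Lung was above both other tissues in all 47 mice, and the lowest lung libraries overlapped the highest liver and kidney ones. The fitted difference was -4.06 for liver minus lung (SE 0.13, q = 3.08e-53) and 5.17 for lung minus kidney (SE 0.13, q = 1.89e-61), the largest of the 5 members in that contrast.

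Cd22 encodes an inhibitory receptor that binds sialic acid. It had more than 3 counts in 12 of 47 lung libraries and in none of the liver or kidney libraries, where the highest count was 1. Its highest lung level was 0.864 TMM CPM in CC031. Pooled over libraries it reached 0.168 TMM CPM in lung (0.139 to 0.202) against 0.00623 in liver (0.000755 to 0.0225) and 0.00842 in kidney (0.00229 to 0.0215), so the counting intervals of lung and the other tissues did not overlap.

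Cr2 encodes the complement receptor CD21, which is found on B cells and on follicular dendritic cells. In TMM CPM, which is not scaled for transcript length, Cr2 was the member with the highest median outside lung. In TPM its median was the highest in kidney, at 1.07, but in liver Cd79a had 0.59 and Cr2 0.50. Its lung level ran from 3.70 in CC016 through 10.1 to 26.5 TMM CPM in CC012, its liver level from 0 in CC033 through 1.74 to 5.21, and its kidney level from 0.582 through 2.18 to 5.91. Lung was above both other tissues in all 47 mice, but only 40 lung libraries were above every liver library and 39 above every kidney library. The fitted differences were -2.52 for liver minus lung (SE 0.13, q = 7.38e-35) and 2.13 for lung minus kidney (SE 0.13, q = 7.83e-30), the smallest of the 5 tested members in both contrasts. Cr2 was also the member present in more than 3 counts in 46 of 47 kidneys, against 18 for Cd79a, 12 for Ms4a1, 6 for Blk, and 1 each for Pax5 and Cd79b. Its transcript is the longest of the 5, at 6205 bases, which raises its counts in every tissue alike.

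Blk encodes a Src-family kinase that acts downstream of the receptor. Lung values ran from 0.382 in CC015 through 5.60 to 17.8 TMM CPM in CC030, liver values from 0 through 0.566 to 1.94, and kidney values from 0 through 0.163 to 0.974. The fitted differences were -3.10 for liver minus lung (SE 0.19, q = 1.13e-29) and 4.77 for lung minus kidney (SE 0.19, q = 1.21e-43). Blk was above 3 counts in 23 livers and in 6 kidneys.

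Pax5 encodes the factor that maintains B-cell identity. Lung values ran from 0.382 in CC015 through 3.71 to 12.8 TMM CPM in CC030, and liver and kidney values did not exceed 0.695 and 0.591. It was above the liver and the kidney of the same mouse in all 47 lungs, with fitted differences of -3.93 for liver minus lung (SE 0.20, q = 4.63e-35) and 4.97 for lung minus kidney (SE 0.20, q = 4.73e-43). Only 3 livers and 1 kidney had more than 3 Pax5 counts. The fitted fold of a gene with so few counts depends on the small count that the fit adds, and the ratio of pooled levels was larger, 22.7 against liver and 51.6 against kidney.

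**Figure D1:**
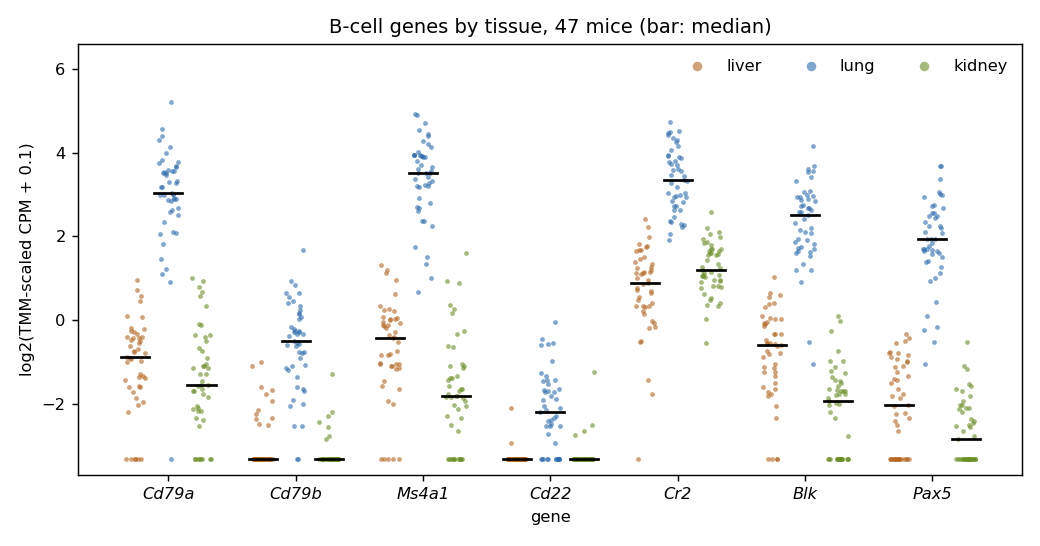
Levels of the 7 B-cell genes in each library, as log2 of TMM CPM plus 0.1, with 47 mice per tissue and a bar at the median. Points on the bottom line have 0 counts, and lung lies above the other tissues for every gene. Cr2 is the member whose liver and kidney values are highest on this scale, which is not scaled for transcript length.

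All 5 tested members passed the threshold of q at most 0.1 and a log2 difference of at least 1 in both contrasts with lung. Of 12127 genes tested, 31.2% were called higher in lung than in liver and 24.6% higher in lung than in kidney. Of the 5 members, Cd79a, Ms4a1, Pax5 and Blk passed the low-count filter through their lung libraries, while Cr2 also passed it within liver and within kidney alone. The number of members called is a description of where they are found and not support for it. The median log2 difference over the 5 was -3.93 for liver minus lung and 4.77 for lung minus kidney, beside -0.07 and -0.02 over all tested genes.

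Lung's own genes were also counted in the other libraries. Pooled over libraries, the surfactant gene Sftpc stood in kidney at 0.129% of its lung level, Sftpa1 at 0.127% and the club-cell gene Scgb1a1 at 0.103%. The B-cell genes stood in kidney at between 1.94% of their lung level, for Pax5, and 21.8%, for Cr2. In liver the same lung genes stood at 0.186% to 0.531%, and the members at 3.71%, for Cd22, to 16.6%, for Cr2. The part of lung RNA in the liver and kidney counts was not tested.

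Liver and kidney differed less. Relative to kidney, liver was higher by 1.67 for Blk (SE 0.19, q = 1.57e-13), 1.11 for Ms4a1 (SE 0.13, q = 2.46e-13) and 1.04 for Pax5 (SE 0.20, q = 2.56e-06), all past the threshold. Cd79a (0.50, q = 0.00142) and Cr2 (-0.39, q = 0.00478) did not reach a log2 difference of 1. Of all genes tested, 14.7% had calls for liver and 22% for kidney, each as the higher tissue. The median over the 5 members was 1.04, beside -0.07 over all tested genes. These calls depended on the test and the scale. Under edgeR's quasi-likelihood test 2 of the 3 held, and Ms4a1, at 0.93 (q = 0.000109), fell below the threshold. On log2(TPM + 0.1), which is not scaled by TMM, no member was called higher in liver. The Blk difference was 0.75 there, Cd79a turned to -0.25 and Cr2 was called higher in kidney at -1.15, while the median of all genes lay at -0.94. Relative to that median, Blk stood at 1.69, Ms4a1 at 1.30, Pax5 at 1.27, Cd79a at 0.69 and Cr2 at -0.21 on log2(TPM + 0.1). On log2(TPM + 1), relative to its own median of -0.72, they stood at 0.91, 0.77, 0.78, 0.53 and 0.18. None reached 1 on that scale.

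The make-up of the member counts in each tissue was described by the share of Cr2. Which cells gave the Cr2 counts was not tested. In each library, Cr2 counts were divided by the summed counts of the 5 members listed with 1 transcript, Cd79a, Ms4a1, Cr2, Pax5 and Blk. The share was 14.5% at lowest, 26.5% at the median and 69.6% at highest in the 47 lungs, the highest being CC015 with 16 of 23 counts. In 46 livers it ran from 10% through 48.5% to 77.8%, and in 47 kidneys from 29.2% through 79.2% to 100%. The liver of CC033 had no count and was left out.

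Kidney exceeded lung in 47 of 47 mice, with a mean difference of -44.3 percentage points for lung minus kidney (SD 18.5). Liver exceeded lung in 42 of 46, by a mean of 20.0 points (SD 16.2), and kidney exceeded liver in 39 of 46, with a mean of -23.8 points for liver minus kidney (SD 21.1). Since the measure was chosen after the levels were seen, these differences are given without a test. With mice required to have at least 10 counts in both tissues the mean differences were -44.4 (n = 43), 20.2 (n = 40) and -24.9 (n = 37). Pooled over libraries, Cr2 made up 25.9% of 31061 counts in lung (95% Wilson interval 25.4 to 26.4, for counting error only and much narrower than the spread over mice), 49.8% of 1246 in liver (47.1 to 52.6) and 69.5% of 1740 in kidney (67.3 to 71.6).

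**Figure D2:**
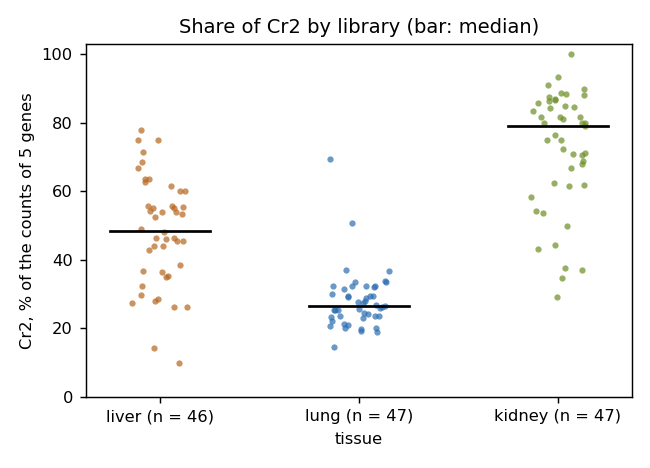
Cr2 counts as a percentage of the summed counts of Cd79a, Ms4a1, Cr2, Pax5 and Blk in each library, by tissue, with a bar at the median. Every mouse had a higher share in kidney than in lung, and the lung library near 70% is that of CC015, with 23 counts over the 5 genes.

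Other B-cell genes and markers of other blood cells were compared with the members in the same fit. A gene high in lung alone can pass the low-count filter. The counts of list genes called higher in lung therefore describe where they are found and are not support for it. Over all tested genes, 24.6% were called higher in lung than in kidney and 31.2% higher in lung than in liver. Of 30 other B-cell genes, 16 passed the low-count filter, and 14 of these were called higher in lung than in kidney and 14 higher in lung than in liver. Against kidney, Cr1l (0.11) and Blnk were not called. Blnk was lower in lung at -0.69 (SE 0.11, q = 4.93e-09), with medians of 5.68 TMM CPM in lung and 9.24 in kidney. Against liver, Bach2 and Cr1l were not called, at -0.89 and 0.21 for liver minus lung. Vpreb3 exceeded kidney by 4.51 in lung (SE 0.20, q = 1.26e-39) and the IgM receptor Fcmr by 4.48 (SE 0.15, q = 1.72e-50). Among the genes of antigen receptor signalling 7 of 14 were called higher in lung than in kidney, among them Ptprc, which encodes CD45, at 3.80, and the adaptor Pik3ap1 at 3.79. Between liver and lung, 8 of the 14 were called higher in lung and 1 higher in liver, Pik3ap1, by 1.36.

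Lung was also higher for the other leukocyte lists. Of 15 T-cell genes 9 were tested, and all 9 were called higher in lung than in kidney, with Cd2 at 4.92, Cd3e at 3.80 and Cd28 at 3.54. Of 8 NK-cell genes 4 were tested, and all 4 were called higher in lung, with Gzma at 4.72, Ncr1 at 4.02 and Nkg7 at 3.71. Of 7 tested macrophage and monocyte genes 6 were higher in lung, with Marco at 6.71, Lyz2 at 6.47 and Cd68 at 2.99. Of 7 neutrophil genes 3 were tested, and all 3 were higher in lung, with Ltf at 6.32, S100a8 at 5.03 and Cxcr2 at 4.39. Of 5 tested red cell and platelet genes 4 were called higher in lung than in kidney. The platelet genes Ppbp and Pf4 were higher in lung by 3.79 and 3.23, and the red cell gene Alas2 by 1.77, while the red cell gene Slc4a1, which kidney tubule cells also use, was lower at -2.45. The median Alas2 level was higher in liver, at 5.10 TMM CPM, than in lung, at 2.86.

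Lymphoid tissue and plasma cell genes were compared in the same way. Among genes of lymphoid organisation and the germinal centre, 4 of 5 tested were higher in lung, with Ltb at 3.76, S1pr2 at 3.32 and the B-cell chemokine Cxcl13 at 2.77. Of 7 plasma cell genes, 3 were called higher in lung than in kidney, Sdc1 at 3.33, Prdm1 at 2.36 and Irf4 at 2.33, all of which other cell types also express. The median Sdc1 level was higher in liver, at 207 TMM CPM, than in lung, at 111. Jchain, which encodes the joining chain of secreted antibody, differed by 0.62 (SE 0.26, q = 0.0217) and Mzb1, a chaperone of antibody-secreting cells, by 0.96 (SE 0.16, q = 5.01e-08), and neither reached the threshold. The median Jchain level was 15.7 TMM CPM in lung, 8.89 in kidney and 1.62 in liver. Jchain was lower in liver than in kidney by -3.60 on the log2 scale (SE 0.28, q = 1.25e-22), where Ms4a1, Blk and Pax5 were higher in liver. The plasma cell list was divided in this contrast. Of the 7 tested genes 4 were called higher in kidney and 2 higher in liver, Sdc1 at 4.21 and Xbp1 at 1.51. Of the 7 precursor genes only Cd93, which endothelial cells express, passed the filter.

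Variation between mice was next examined within each tissue. In lung, each of the 6 members above the dispersion filter had a biological coefficient of variation above that of most genes. It was 0.617 for Cd79a, 0.618 for Pax5, 0.571 for Ms4a1, 0.566 for Blk, 0.485 for Cr2 and 0.664 for Cd79b, beside a median of 0.237 over 12873 genes. The members stood above 86.9% of genes, for Cr2, to 94.1%, for Cd79b. Without CC015 the values were 0.571 for Cd79a, 0.6002 for Pax5 and 0.485 for Cr2. In kidney and liver only Cr2 passed that filter, at 0.355 and 0.438, beside medians of 0.229 and 0.241.

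The members varied together in lung. Over the 47 lung libraries the correlation with Cd79a, on ranks converted to normal scores of TMM-normalized TPM, was r = 0.94 for Pax5 (rho = 0.92), 0.92 for Blk (rho = 0.89) and 0.86 for Ms4a1 (rho = 0.83). It was r = 0.81 for Cr2 (rho = 0.82), 0.76 for Cd79b (rho = 0.72) and 0.55 for Cd22 (rho = 0.55). Every r and rho but those of Cd22 gave p = 1e-05 in a two-sided permutation test of 100000 resamples, the smallest it can give, and Cd22 gave 7e-05 and 0.00011. Adjusted over all 12389 genes correlated with Cd79a in lung, q ran from 1.01e-18 for Pax5 to 0.00557 for Cd22, so all 6 were called. The background was 2%, 248 of those genes, with a median r of 0.01. It depended on the scale. On log2(CPM + 0.1) 1327 genes were called, and on TPM without TMM 9934, with a median r of 0.38.

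With the 2 most distant strains in Cd79a left out, r was 0.93 for Pax5, 0.90 for Blk, 0.83 for Ms4a1, 0.80 for Cr2, 0.68 for Cd79b and 0.47 for Cd22. Without CC015 the 6 values ran from 0.53 for Cd22 to 0.93 for Pax5, and with the share of Rn45s and Lars2 as a covariate from 0.56 to 0.94. All remained past q of 0.1 in these alternatives. Among the strains with more than 3 counts of both genes, 12 for Cd22, its r was 0.60 (q = 0.528). Over all 21 pairs of members, r ran from 0.41, for Cd79b with Cd22, through a median of 0.78 to 0.94, for Cd79a with Pax5.

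**Figure D3:**
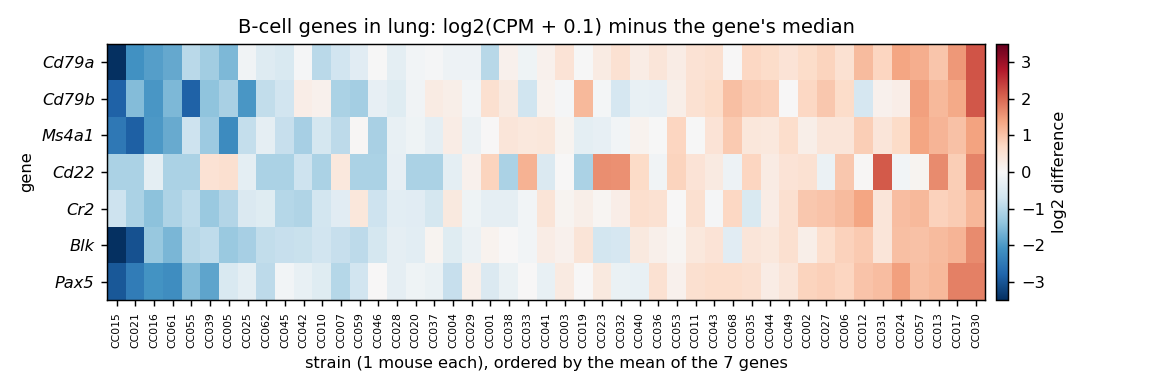
Each of the 7 B-cell genes in lung, by strain, as log2(TMM CPM + 0.1) minus the median of that gene over 47 mice, with strains ordered by the mean of the members. Cells run from blue to red together from CC015 at the left to CC030 at the right, and Cd22, with a median of 2 counts, follows the order least.

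CC015, CC021 and CC016 had the lowest lung means of the members, and CC030, CC017 and CC013 the highest. The summed level of the 7 genes ran from 8.80 TMM CPM in CC015 through a median of 41.6 to 124 in CC030. CC030 had 713 Cd79a, 579 Ms4a1, 434 Cr2, 340 Blk and 245 Pax5 counts in a library of 9570970 counts. CC021 had 24, 20, 62, 8 and 8 counts of the same genes in 5320599, of which 2.75% fell on Rn45s and Lars2. CC015 had 0, 5, 16, 1 and 1.

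The 3 counts that set a floor in the lung library of CC015 correspond to 1.15 TMM CPM, below the median lung level of each of the 5 members listed with 1 transcript. CC015 was also lowest of 47 for the summed level of the other B-cell genes, at 82.6 against a median of 167.7, and of the T-cell genes, at 11.9 against 34.3. It was not low for macrophage and monocyte genes, where it ranked 31 from the lowest, or for lung's own genes, where it ranked 14. It ranked 46 for liver's own genes and 46 for kidney's own genes in lung. The part of these library properties in the low B-cell values of CC015 was not tested. In the same mouse, the member mean of normal scores ranked 3 from the lowest in liver and 4 in kidney. By the summed level of the members, the measure used for the lists above, it ranked 9 in liver and 12 in kidney. The kidney library had 2 Cd79a and 15 Cr2 counts and 0 for each other member.

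Among the 10 genes whose lung pattern was most like the mean of the members, out of 12383, were Fcmr (rho = 0.93 over 47 strains), the chemokine receptor Cxcr5 (0.91), the transcription factors Spib (0.89) and Bcl11a (0.88), and the inhibitory receptor Siglecg (0.87). They were followed by H2-Ob (0.85), Blnk (0.83), Prkcb (0.83) and Ikzf3 (0.83). Of these 10, 8 were on the lists of other B-cell genes or antigen receptor signalling. The 10 were ordered by rho on the same libraries, so this is a description with no test.

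Of 17 other B-cell genes measured in lung, 14 were called with Cd79a, with a median r of 0.74. Those not called were Ly6d at 0.30 (q = 0.443), Vpreb3 at -0.13 (q = 0.847) and Cr1l at -0.13 (q = 0.847). Tnfrsf13c, the BAFF receptor, had r = 0.77, and Blnk, the adaptor below the receptor, had 0.77. Of 15 genes of antigen receptor signalling 9 were called, with a median of 0.46, among them Prkcb at 0.80 and Btk at 0.73. Of 10 T-cell genes 3 were called, Cd2 at 0.68, Cd28 at 0.52 and Cd3g at 0.44, with a median of 0.38. Of 7 plasma cell genes 2 were called, Irf4 at 0.74 and Mzb1 at 0.61, while Jchain had r = 0.28 (q = 0.490).

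No gene was called among 6 NK-cell, 7 macrophage and monocyte, 4 neutrophil and 6 red cell and platelet genes, with medians of 0.09, 0.13, 0.14 and -0.02. Of 5 lymphoid tissue genes only Ltb was called, at 0.73, and Cxcl13 had r = 0.01. Lung's own gene Sftpa1 was called in the negative direction, at -0.45 (q = 0.0747). Against the mean of the members, the mean normal score over the other B-cell genes past the expression filter had r = 0.96. The same mean had r = 0.58 for the T-cell list, 0.15 for the NK-cell list and 0.10 for the macrophage list. Without CC015 and CC055, r was 0.96 for the other B-cell genes, 0.55 for the T-cell, 0.13 for the NK-cell and -0.002 for the macrophage list. The share of Rn45s and Lars2 had r = -0.03 with the member mean in lung, and the total count 0.00. In kidney the share had r = -0.31 with the member mean and the total count -0.02, and in liver 0.03 and 0.18.

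The same correlations were computed in liver and kidney. None of the 6 was called with Cd79a in liver or in kidney. The background was 0% in liver, 0 of 9008 genes, and 0.0371% in kidney, 4 of 10777. At an unadjusted p under 0.05 the counts were 654 genes in liver and 726 in kidney, and 1 and 0 members. Under Spearman's rho, 0 genes were called in liver and 6 in kidney. In liver the highest member was Pax5 with r = 0.43 (rho = 0.39, permutation p = 0.00319 and 0.00664, q = 0.438), and in kidney Blk with r = 0.28 (rho = 0.24, permutation p = 0.0611 and 0.0987, q = 0.754). The range over the 6 was -0.04, for Cd22, to 0.43 in liver and -0.07, for Cr2, to 0.28 in kidney. Among the 18 kidneys with more than 3 counts of both genes, Cr2 had r = -0.28 (q = 0.784).

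The depth behind these values was low. The median Cd79a count was 2 in liver and 2 in kidney against 104 in lung, and 32 livers and 29 kidneys had at most 3 counts. The absence of calls does not show that the members varied independently, and a difference from lung was not tested. Over the 21 pairs, r had a median of 0.13 in both tissues, with the highest values for Cr2 and Blk in liver, at 0.48, and Ms4a1 and Blk in kidney, at 0.50.

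**Figure D4:**
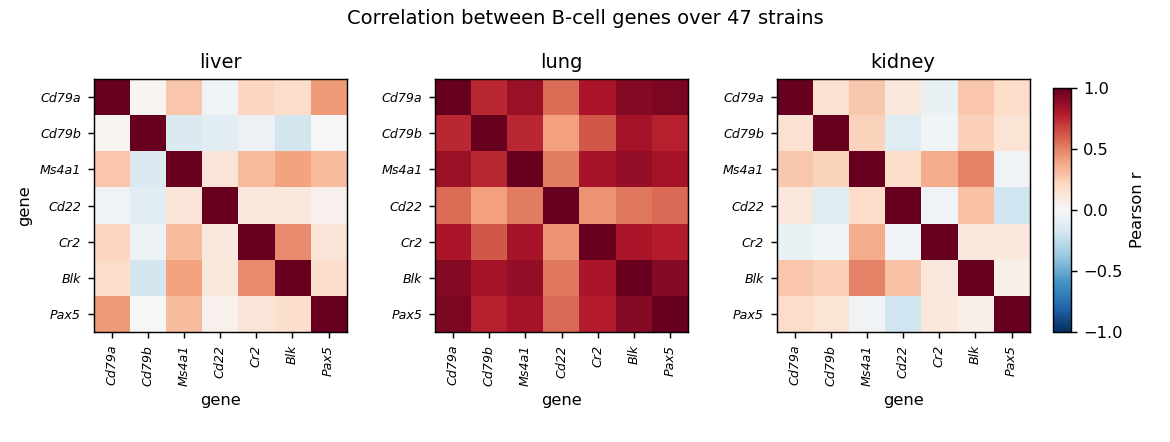
Pearson r between every pair of the 7 B-cell genes over 47 strains in liver, lung and kidney, on normal scores of TMM-normalized TPM. All 21 lung pairs are positive, from 0.41 to 0.94, while the medians in liver and kidney are near 0.13.

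In kidney the 4 genes called with Cd79a were Jchain (r = 0.68, q = 0.0014), Mzb1 (r = 0.62, q = 0.0175), Crtap (r = 0.60, q = 0.0320) and the integrin Itgb7 (r = 0.56, q = 0.0844). Jchain and Mzb1 are genes of antibody-secreting cells, and they were the 2 of 6 tested plasma cell genes that were called. With the 2 most distant strains in Cd79a left out, Jchain kept its call (r = 0.64, q = 0.0208) and Mzb1 did not (r = 0.57, q = 0.128), nor did Crtap and Itgb7. In the 18 kidneys with more than 3 Cd79a counts, Jchain had r = 0.53 and Mzb1 0.62, with no gene called. Among the other lists in kidney, 0 of 4 other B-cell genes and 0 of 7 receptor signalling genes were called. A difference between lung and kidney in these correlations was not tested.

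By the rank correlation with the member mean, the nearest genes in kidney were Cklf (rho = 0.53), Birc3 (0.53), Colgalt1 (0.52), Cyb5r1 (0.52) and Ets1 (0.51), and in liver Lsm5 (0.54), Tmem18 (0.51), Acaca (0.50), Reck (0.50) and 1700109K24Rik (0.49). None of these 10 was on the B-cell lists. The kidney mean was highest in CC068, CC020 and CC044 and lowest in CC027, CC039 and CC029. CC068 had 47 Ms4a1, 36 Cd79a, 13 Blk and 9 Pax5 counts in kidney, and its macrophage genes ranked 46 of 47. CC020 and CC044 reached high ranks with 9 and 4 Ms4a1 counts. The liver mean was lowest in CC033, CC007 and CC015 and highest in CC013, CC012 and CC059, and the place of CC033 rests on a library with no count for any member.

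Agreement between tissues asked whether a mouse high for a gene in 1 tissue was high in another. For liver and lung, Ms4a1 had r = 0.50 (rho = 0.45, permutation p = 0.00036 and 0.00153, q = 0.00833 over all genes) and Cd79a r = 0.38 (rho = 0.36, permutation p = 0.00899 and 0.0149, q = 0.0776). These were 2 of the 7 members called, and the background was 13.2% of 8524 genes, with a median r of 0.14. Pax5 had r = 0.32 (q = 0.150), Blk 0.16, Cr2 0.11, Cd79b 0.04 and Cd22 -0.11, none of them called.

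Ms4a1 kept its call with the 2 most distant strains left out (r = 0.43, q = 0.0479), without CC015 (r = 0.47, q = 0.0199) and without CC033 (r = 0.54, q = 0.00355). Among the 26 strains with more than 3 counts in both tissues it had r = 0.43 (q = 0.153). Cd79a lost its call without CC015 (r = 0.35, q = 0.125) and without the 2 farthest strains (r = 0.29, q = 0.269). It also lost it with all strains on log2(CPM + 0.1) (r = 0.26, q = 0.272), under Spearman's rho (q = 0.108) and on TPM without TMM (r = 0.31, q = 0.514).

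For liver and kidney, Cr2 was the 1 of 7 members called, with r = 0.36 (rho = 0.39, permutation p = 0.0137 and 0.00648, q = 0.0687). Ms4a1 had r = 0.32 (rho = 0.28, permutation p = 0.0270 and 0.0531, q = 0.108). The background was 23.1% of 8490 genes, with a median r of 0.18. Cr2 held at r = 0.40 (q = 0.0550) without the 2 farthest strains and at 0.42 (q = 0.0293) without CC033, and lost its call on log2(CPM + 0.1), at r = 0.30 (q = 0.129).

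For lung and kidney none of the 7 was called by the test on normal scores, with 2 at an unadjusted p under 0.05. Ms4a1 had r = 0.34 (rho = 0.37, permutation p = 0.0195 and 0.0116, q = 0.109), and it was called under Spearman's rho (q = 0.0772). Cd79a had r = 0.29 (q = 0.192), and Pax5 and Cd79b had 0.26 and 0.27. The background was 17% of 10063 genes, with a median r of 0.15. With 7 members, calls of 2, 1 and 0 in the 3 pairs of tissues were not set apart from these backgrounds by any test.

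The mean of the members over the 7 genes had r = 0.39 between liver and lung, 0.40 between liver and kidney, and 0.38 between kidney and lung over 47 mice. These values are given without a test and with all strains only, CC015 and CC033 among them. CC013 ranked 47 in liver, 45 in lung and 44 in kidney, and CC015 ranked 3, 1 and 4 from the lowest. By the summed level of the members, CC015 ranked 9, 1 and 12. CC030, the highest lung, ranked 35 in liver and 43 in kidney, and CC027, the lowest kidney, ranked 39 in lung.

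**Figure D5:**
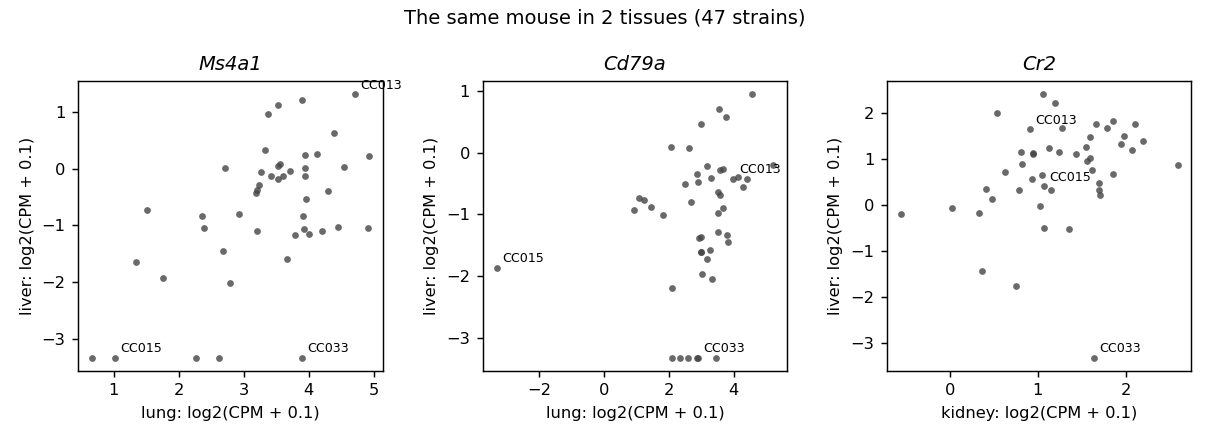
Levels of Ms4a1 and Cd79a in lung and liver, and of Cr2 in kidney and liver, for the same 47 mice, as log2(TMM CPM + 0.1). Points on the bottom line of each panel had 0 counts in liver, among them CC033, and CC015 lies apart from the other lungs for Cd79a.

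What each gene did apart from the other members was measured with residuals on the mean of the others, for the 4 cases with enough counts. Cr2 had a residual r of 0.30 between liver and lung (rho = 0.30, permutation p = 0.0440 and 0.0400), 0.25 between liver and kidney (permutation p = 0.0845) and 0.13 between lung and kidney (permutation p = 0.387). Ms4a1 had -0.04 between liver and lung (permutation p = 0.773). With 4 values computed, none passed after adjustment, at an adjusted p of 0.169 for the lowest. For Cr2 in liver and lung the value was 0.12 on log2(CPM + 0.1) (permutation p = 0.433), 0.28 without CC033 (permutation p = 0.0638), 0.33 without CC015 (permutation p = 0.0260) and 0.34 with the 2 most distant strains left out (permutation p = 0.0216, adjusted p = 0.0865). For Cr2 in liver and kidney it was 0.33 without CC033 (permutation p = 0.0268).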

How the data were processed

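Total RNA depleted of ribosomal RNA was sequenced from whole liver, lung and kidney of 47 mice. The authors aligned filtered reads to strain-specific pseudo-genomes of mm9 (NCBIM37) with STAR (2.5.3a) and RSEM. They deposited, per gene, an expected count, TPM and FPKM value for each library. The expected counts were rounded (25 values were not whole), and the FPKM values deposited by the authors were not used. Tissues were compared with limma 3.58.1 (voom) and edgeR 4.0.16 (TMM) in R 4.3.3, with tissue and strain as terms. The genes tested exceeded 1 CPM in 30% of libraries or more, and a call needed q at most 0.1 and an absolute log2 difference of at least 1. The study's fit also had a batch term, which is not in the labels used here. Strain numbers pair libraries of the same mouse: the median correlation of deviations from the tissue mean was 0.17 to 0.20 within mice and near 0.00 between mice. Correlations over strains used normal scores of TMM-normalized TPM, genes above 1 in more than 50% of libraries plus all members, Benjamini-Hochberg q over those genes and 100000 permutations. DESeq2 1.42.0, edgeR's quasi-likelihood test, other scales and left-out strains were the alternatives, and the scripts were tested on simulated data. The text names all 7 members, the 3 genes of each list with the largest lung to kidney difference past the threshold, the genes most like the member mean, and the 3 highest and lowest strains. Some genes that this rule names are not reported here. Other genes and strains, among them Jchain, Mzb1, CC055 and CC033, were named after their values were seen. The members and gene lists were chosen with earlier results of these data known. Replicates are 47 mice of 47 strains, so p-values include differences between strains.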

Additional observations from a re-analysis of the deposited data

How the results depend on the processing

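The differences of Cd79a, Ms4a1, Cr2, Pax5 and Blk between lung and either other tissue kept their direction and their call under every alternative run, with log2 differences of lung minus kidney from 1.96 for Cr2 to 5.90 for Pax5. The paired fit was the main one, and without the replicate block the number of genes called was 6677 between liver and lung, 4458 between liver and kidney, and 5639 between kidney and lung, with 5, 3 and 5 B-cell genes, so no member changed its call, and the Cd79a q for liver and kidney rose to 0.244. Without the low-count filter 12142 genes were called for liver and lung, against 6657. For liver and kidney, 0 members were called on log2(TPM + 1) and 1 on log2(TPM + 0.1), where Cd79a turned to -0.19 and -0.25. On those scales the median of all genes lay at -0.72 and -0.94, and 16.3% and 14.4% of the calls were higher in liver, against 40.0%. Under edgeR's quasi-likelihood test 2 members were called for liver and kidney, against 3. Under DESeq2 size factors the median of all genes lay at -0.30 for liver minus lung, where 36.3% of calls were higher in liver, against 43.2%. Agreement of liver and lung fell to 1 member on TPM without TMM, on log2(CPM + 0.1), under Spearman's rho, without the 2 farthest strains and without CC015, and to 0 among strains with more than 3 counts. Agreement of liver and kidney rose to 2 members on TPM without TMM, without CC068 and with the share of Rn45s and Lars2 as a covariate. Agreement of lung and kidney rose to 1 member on log2(CPM + 0.1), under Spearman's rho, without the 2 farthest strains, with total count as a covariate and without CC033. Correlation with Cd79a in kidney rose to 2 members, Ms4a1 and Blk, on TPM without TMM, where 5242 of all genes were called, against 4. On that scale 9934 genes were called in lung, against 248, and 456 in liver, against 0. The cause of these changes was not tested. Correlations near 0 changed sign: Cd22 for liver and lung with total count as a covariate (0.0069) and for lung and kidney without the 2 farthest strains (0.054), Blk between kidney and liver on TPM without TMM (0.060) and for lung and kidney in the 6 strains with more than 3 counts (-0.013). With Cd79a, Cd79b in liver turned on log2(CPM + 0.1) (-0.012) and without CC055 or CC033 (-0.0030), Cd22 in liver on log2(CPM + 0.1) (0.045), Cr2 in liver among strains with more than 3 counts (-0.18) and Cr2 in kidney on TPM without TMM (0.15). The residual r of Ms4a1 for liver and lung turned to 0.069 on log2(CPM + 0.1) and 0.024 without the 2 farthest strains, and that of Cr2 for lung and kidney to -0.0097 without the 2 farthest strains. The leave-out settings for CC015, CC033, CC055 and CC068, the settings on Rn45s and Lars2 and the Cr2 share were chosen after seeing the data. Depth limits the liver and kidney values, where 32 and 29 libraries had at most 3 counts of Cd79a, while Cr2 had more than 3 in 40 and 46.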
